A study of Ovis aries with 32 samples.

Results

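The genes described here are a module of 42 inflammatory genes, chosen by name: cytokine ligands, chemokines, their receptors, the transcription factors of the NF-kappaB family with their adaptor and inhibitors, the prostaglandin enzymes and a few adhesion and secreted effector genes. They were followed in perirenal preadipocytes of fetal sheep before and after differentiation. Of the 42 genes, 36 were found by name among the 21271 genes of the table and 32 of these passed the filter that 12737 genes passed, namely 4 or more of the 32 libraries with a value no lower than 10. IL1B, TNF, CXCL14 and TNFRSF11B were in the table but did not pass, and IL1R1, IL11, OSMR, CCL5, CX3CL1 and TLR2 were not analysed here. No value was used to choose the genes, although results of these data were known when the list was made.

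The 8 groups hold 4 RNA-seq libraries each. Preadipocytes of male controls (MC), female controls (FC), growth-restricted males (MFGR) and growth-restricted females (FFGR) make up 4 of them. The other 4 hold the matching cells after culture to what the labels call mature adipocytes (MCD, FCD, MFGRD and FFGRD). All came from near-term singleton fetuses of crossbred Columbia-Rambouillet ewes. In the growth-restricted groups a hot environment in early and mid gestation had left the placenta insufficient, and the control ewes stayed at normal temperature and were pair-fed. No age beyond near term is given for single fetuses, and nothing in the labels says whether the 4 libraries of a group came from 4 animals, so the p-values below measure the spread between these libraries, which may be technical. The labels describe RNA extraction from thawed adipose tissue, whereas the methods describe thawed cell pellets. The composition of the differentiation medium is not given in the sources used here.

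NF-kappaB is a family of transcription factors that wait in the cytoplasm, held by inhibitor proteins such as the product of NFKBIA. Signals from interleukin-1, TNF or bacterial products remove the inhibitor, and the freed RELA and NFKB1 dimers switch on cytokines, chemokines, PTGS2 and, as brakes, NFKBIA and TNFAIP3 themselves. A slower, alternative branch uses RELB with the product of NFKB2. In fat, preadipocytes and stromal cells secrete IL6, CCL2 and IL33, and inflammatory signals are known to hold back adipogenesis.

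Values are normalized read counts, which the authors corrected for library depth, summed over the transcripts of a gene. They are not divided by gene length, so levels are compared between libraries and never between genes. Library sums lay between 9.52 and 21.22 M normalized reads (median 12.6 M). All 7 adipocyte markers rose with differentiation, and their summed value went from a median of 207 in the 16 preadipocyte libraries to 12800 in the 16 differentiated ones. In FCD replicate 4, labelled differentiated, these markers summed to only 349.8, within the preadipocyte range (64.9 to 1380) and below 3 preadipocyte libraries. The other 15 differentiated libraries lay above that range (4120 or more). Some other genes set all 16 differentiated libraries, this one included, above every preadipocyte library. Among these were PTX3 (10600 or more against at most 926), ZBTB16 (157 against 8.19), FKBP5 (4120 against 906) and, narrowly, GLUL (1380 against 1260). Others that rose, such as PER1 and KLF9, overlapped between the stages. Without FCD replicate 4, the same 16 members were called in the mean of the 4 groups. In female controls IL1RL1 was then called (7.20, adjusted p 0.0171) but IL15 was not (-2.68, adjusted p 0.0581). In a clustering of all libraries, 7 stood apart from the other 25, of which 4 were preadipocyte libraries (FC replicate 2, FFGR replicate 2, FFGR replicate 3 and MFGR replicate 1) and 3 were differentiated ones (FFGRD replicate 3, MCD replicate 4 and MFGRD replicate 1). Their values fell more steeply with the genomic span of the transcripts (slope -0.4524 to -0.3011) than those of the others (-0.2752 to -0.0123). For the mean of the 4 groups, results are given with and without these libraries. For the other comparisons only the counts of called members are given without them.

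Differentiation, taken as the mean of the 4 groups, went with lower values of the ligand gene IL33, the chemokine gene CCL2 and RELB, and with higher values of the receptor gene LIFR and the inhibitor gene NFKBIA. CCL2, the monocyte-attracting chemokine, fell by 2.97 ± 0.43 (SE) on the log2 scale. IL33 fell by 2.87 ± 0.45 and RELB fell by 2.06 ± 0.27. LIFR, the receptor for LIF, rose by 2.74 ± 0.51. IL1RL1, which encodes the receptor for IL33 and was low in preadipocytes, rose by 4.69 ± 0.80. Calls needed a limma p, adjusted by Benjamini-Hochberg over all genes, below 0.05 and a fold change above 1.5. In such bulk libraries, fewer cells of a type cannot be told apart from less RNA of a gene per cell.

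By this rule, 16 of the 32 members were called. The 5 that were higher made up 15.6% of the members, beside 12.4% of all genes tested, and the 11 that were lower made up 34.4%, beside 14.8% of all genes. The median log2 fold change of the members was -0.49 and that of all genes 0.03. Of the members, 6 (IL6, IL1A, IL15, IL34, IL1RL1 and IL6R) reached a value of 10 in fewer than 4 libraries of one stage and so passed the filter through the stage where they were higher. Among the 26 members that reached it in at least 4 libraries of each stage, 3 were called higher (11.5%) and 7 lower (26.9%). The background for that comparison, over the 11635 genes that met the same condition, was 11% higher and 13.2% lower. The counts describe the members, and no test was made of them against other genes.

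**Figure D1:**
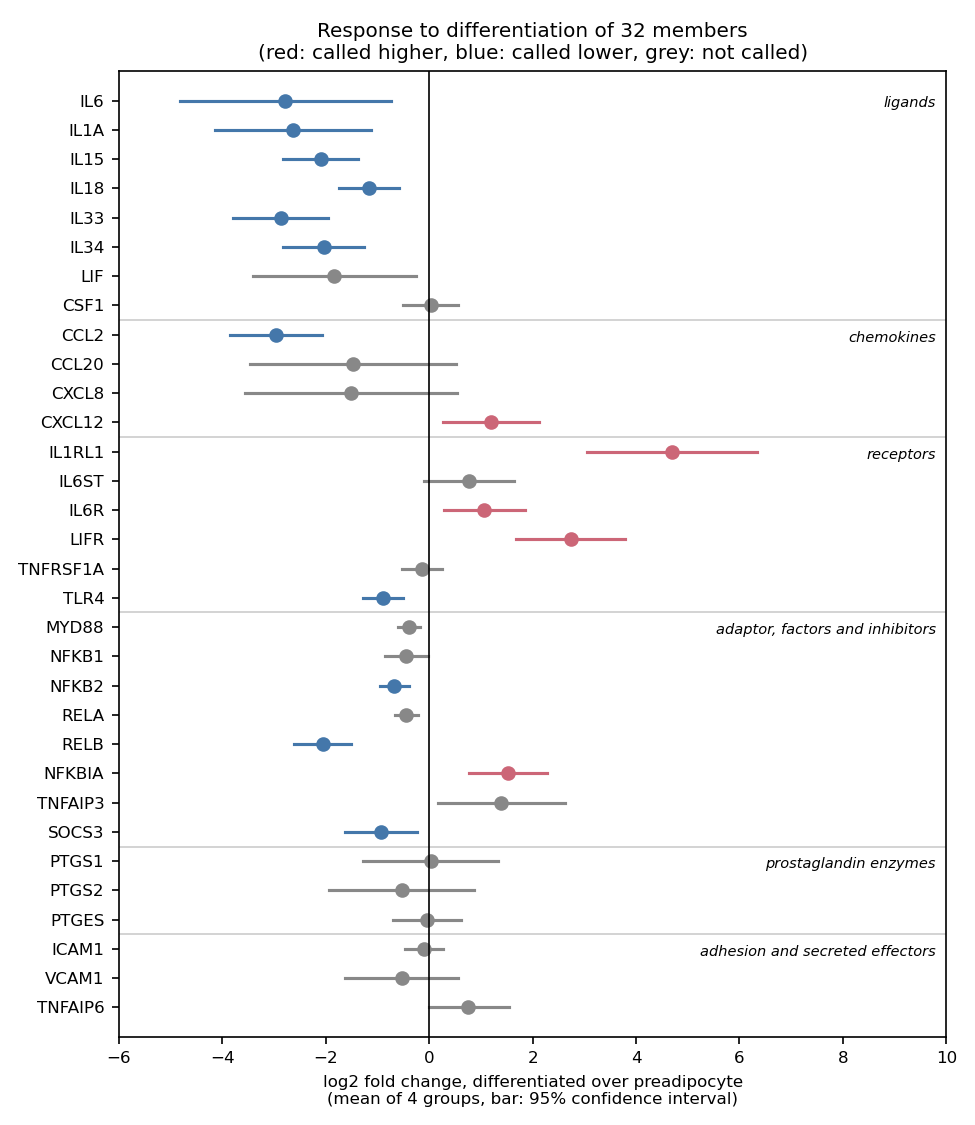
Log2 fold change (x axis, differentiated over preadipocyte, mean of the 4 groups) of each of the 32 members tested, ordered by role, with bars for the 95% confidence interval from the limma fit. Of the ligands at the top, IL33 lies farthest left at -2.87, whereas the receptors IL1RL1 (4.69) and LIFR (2.74) lie to the right and the prostaglandin enzymes lie around 0.

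Of the 8 ligands tested, 6 were called lower, but 4 of these (IL6, IL1A, IL15 and IL34) had passed the filter through the preadipocyte stage, where they were higher. Among the 4 that reached a value of 10 in at least 4 libraries of each stage, IL33 and IL18 fell and LIF and CSF1 were not called, beside the 13.2% of such genes that were lower. IL33, a nuclear alarmin of stromal cells that is released on damage, lay between 134.1 and 759.3 in preadipocytes (median 469.3) and between 4.34 and 355.8 after differentiation (median 56.7). All 16 differentiated libraries were below the preadipocyte median and 11 were below the lowest preadipocyte library, although the stages overlapped. Its adjusted p was 1.31e-05. The gene lies on chromosome 2, 79870060 to 79890121, in the assembly Oar_rambouillet_v1.0 that the authors used. IL18, a cytokine activated by the inflammasome, had values of 23.3 to 136.1 in preadipocytes (median 75.4) and 11.7 to 98.1 after differentiation (median 31.2). It fell by 1.17 ± 0.28 (adjusted p 0.00188), and 13 of the 16 differentiated libraries were below the preadipocyte median.

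The other ligands called were low or varied widely between preadipocyte libraries. IL1A, the alpha form of interleukin-1, had a preadipocyte range of 2.56 to 1464 around a median of 15.6. After differentiation it lay between 0 and 12.4 (median 3.08), with all 16 libraries below the preadipocyte median, and its log2 fold change was -2.63 ± 0.74 (adjusted p 0.0065). The IL1A call held in each fit without 1 library. Without both FFGR replicate 1 and FC replicate 1 the log2 fold change was smaller (-1.78, adjusted p 0.00879). IL15, a growth factor of lymphocytes that muscle and fat also make, went from 0.95 to 19.6 (median 5.66) down to 0 to 3.33 (median 0.376). IL34, which shares its receptor with CSF1, went from 1.995 to 25.5 (median 7.89) down to 0 to 11.45 (median 1.15). Both were low, each with 5 preadipocyte libraries at or above 10. Their log2 fold changes were -2.10 ± 0.35 (adjusted p 3.58e-05) and -2.03 ± 0.38 (adjusted p 0.000135).

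IL6, the cytokine that acts through the shared receptor chain IL6ST, varied widely between libraries. In preadipocytes it ran from 0 to 3550 around a median of 10.8, and in differentiated cells from 0 to 93.6 around a median of 1.00. Of the differentiated libraries, 15 of 16 were below the preadipocyte median. The log2 fold change was -2.78 ± 1.00 (adjusted p 0.032). The call was lost without any 1 of 5 libraries: MC replicate 2 (-2.58, adjusted p 0.0544), MCD replicate 3 (-2.57, 0.0553), MFGR replicate 3 (-2.37, 0.0584), FC replicate 1 (-2.30, 0.0584) and FFGR replicate 1 (-2.18, 0.0515). LIF, a cytokine of the IL6 family, went from a median of 11.9 (0 to 362.9) to 2.30 (0 to 20.2) and was not called (-1.83 ± 0.76, adjusted p 0.066). CSF1, the macrophage growth factor, had similar values at both stages, with medians of 741.8 and 637.8 and a log2 fold change of 0.03 ± 0.26. A minor transcript of CSF1 fitted on its own was called higher (ENSOART00020013243, 1.94 ± 0.61, adjusted p 0.0207), whereas the other transcript gave -0.04 ± 0.27.

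IL1B and TNF, the classical activators of the pathway, were at or near 0 almost throughout. IL1B was 26.6 in FFGR replicate 1, 5.42 in MFGRD replicate 1 and at most 2.74 in every other library, and was listed at 0 in 11 of 16 preadipocyte and 13 of 16 differentiated libraries. TNF was 10.8 in MFGRD replicate 1, 4.39 in MCD replicate 2 and 3.90 in FCD replicate 2, and at most 1.43 in any preadipocyte library. Neither was tested, so a change at these levels was not detectable.

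Among the chemokines, 1 of 4 fell, 1 rose and 2 were not called. CCL2 lay between 633.4 and 10910 in preadipocytes (median 1993) and between 56.2 and 1199 after differentiation (median 255.1). All 16 differentiated libraries were below the preadipocyte median and 13 were below the lowest preadipocyte library. The adjusted p was 5.23e-06, and the gene lies on chromosome 11, 47858131 to 47859969. CCL20, which attracts cells bearing CCR6, and CXCL8, the neutrophil chemokine, varied within each stage as IL6 did. CXCL8 ran from 0 to 4541 (median 15.6) in preadipocytes and from 0 to 316.1 (median 3.93) after differentiation, a log2 fold change of -1.52 ± 1.00 that was not called (adjusted p 0.27). CCL20 gave -1.47 ± 0.97 (adjusted p 0.27).

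CXCL12, a chemokine that holds CXCR4-bearing blood cells in stromal niches, went the other way. Its values were 91.5 to 1584 in preadipocytes (median 640.6) and 286.8 to 5287 after differentiation (median 767.2), with 10 of 16 differentiated libraries above the preadipocyte median. The log2 fold change was 1.19 ± 0.45 (adjusted p 0.0423), and of its 3 transcripts 1 was called on its own (ENSOART00020036721, 1.97 ± 0.49, adjusted p 0.00412). The gene's call was lost in 13 of the 32 fits that left out 1 library. These were the fits without MC replicate 2 (0.99), MFGR replicate 3 (1.00), MCD replicate 3 (1.02, the highest adjusted p, 0.079), FC replicate 1 (1.03), FCD replicate 3 (1.05), FFGR replicate 2 (1.07), FFGRD replicate 1 (1.07), MFGRD replicate 4 (1.09), MFGRD replicate 1 (1.16), FFGR replicate 1 (1.17), MCD replicate 4 (1.19), FFGR replicate 3 (1.20) and FFGRD replicate 4 (1.20).

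Of the 6 receptors tested, 3 were called higher and 1 lower, but IL1RL1 and IL6R had passed the filter through the differentiated stage, where they were higher. Among the other 4, LIFR rose, TLR4 fell, and IL6ST and TNFRSF1A were not called. IL1RL1 had values of 0 to 28.3 in preadipocytes (median 2.002) and of 3.35 to 3794 after differentiation (median 52.6). All 16 differentiated libraries were above the preadipocyte median and 11 exceeded the highest preadipocyte library. The adjusted p was 4.12e-05, and the gene lies on chromosome 3, 105776944 to 105795636. The receptor and its ligand IL33 thus moved in opposite directions. LIFR, which signals together with the IL6ST chain, lay between 19.4 and 494.7 in preadipocytes (median 214.1) and between 116.9 and 2299 after differentiation (median 1450). Its adjusted p was 0.000136, 15 of 16 differentiated libraries were above the preadipocyte median, and it lies on chromosome 16, 37849387 to 37954356.

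IL6R, the receptor chain specific for IL6, went from 0 to 14.1 (median 4.41) to 1.42 to 32.5 (median 8.82), with 5 differentiated libraries at or above 10. The log2 fold change was 1.07 ± 0.38 (adjusted p 0.0317). Its call was lost without MFGR replicate 1 (0.97, adjusted p 0.0553), FC replicate 2 (0.89, 0.0565), FCD replicate 2 (0.92, 0.0581), FFGR replicate 2 (0.94, 0.0562) or FFGRD replicate 1 (0.95, 0.0596). IL6ST itself had medians of 1451 and 2219 and was not called (0.77 ± 0.43, adjusted p 0.178), although it was with the span slope of each library as a covariate (0.79 ± 0.20, adjusted p 0.00214). TLR4, the receptor for bacterial lipopolysaccharide, was 84.3 to 234.7 in preadipocytes (median 143.8) and 38.0 to 117.3 after differentiation (median 86.7), with all 16 differentiated libraries below the preadipocyte median. It fell by 0.90 ± 0.19 (adjusted p 0.000435). TNFRSF1A, the main TNF receptor, gave -0.14 ± 0.19 and TNFRSF11B, a decoy receptor, was at most 18.04 in any library.

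**Figure D2:**
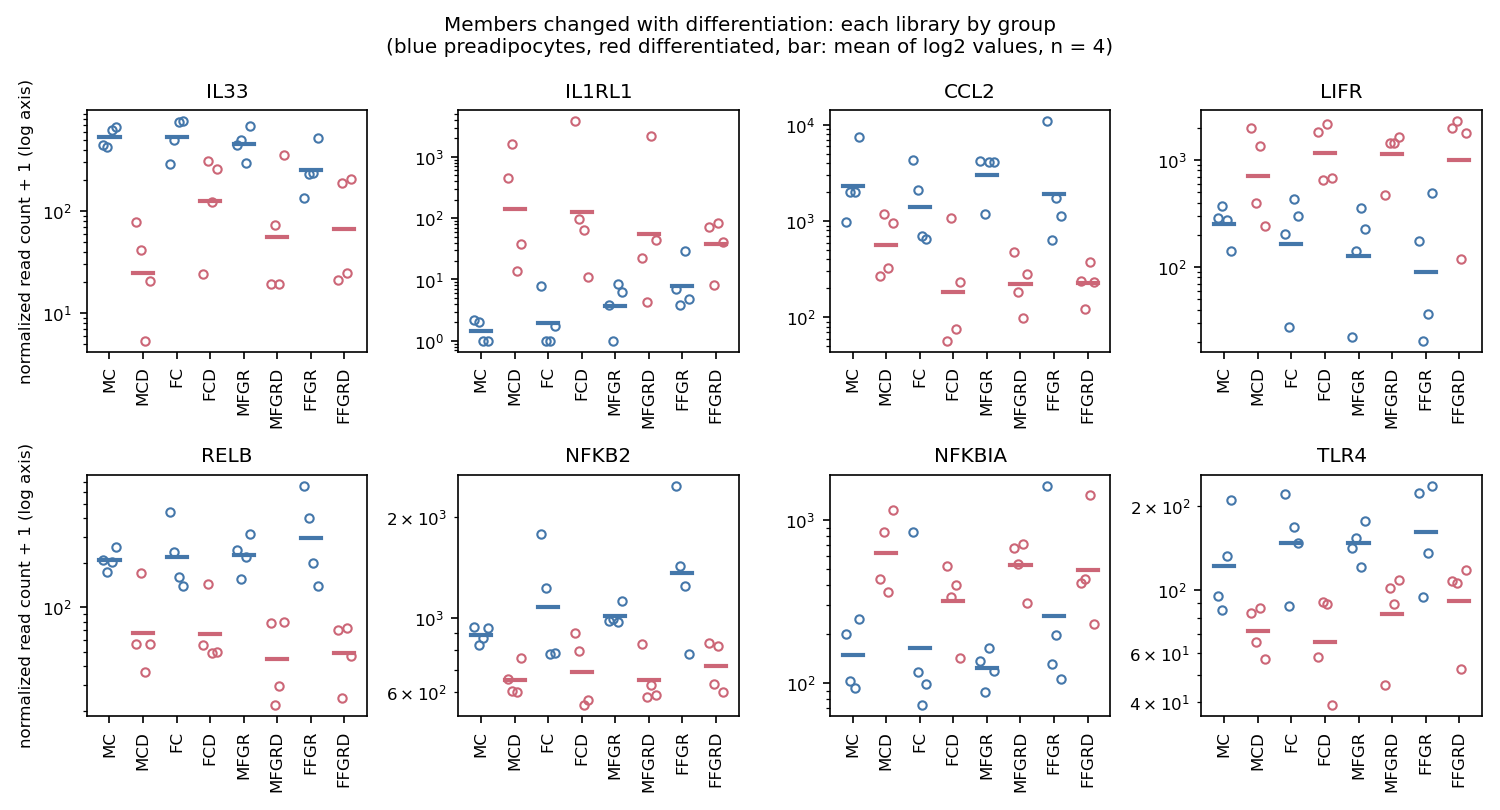
Normalized read count + 1 (log y axis) of 8 members in each library, by group (x axis), with preadipocytes in blue, differentiated cells in red and a bar for the mean of the log2 values of 4 libraries. IL33, CCL2, RELB, NFKB2 and TLR4 sit lower and IL1RL1, LIFR and NFKBIA sit higher in the differentiated group of each pair, with overlapping points in several pairs.

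In the NF-kappaB core, the subunit genes of the alternative branch fell and the inhibitor gene NFKBIA rose. RELB lay between 137.6 and 660.7 in preadipocytes (median 213.8) and between 20.96 and 168.6 after differentiation (median 55.2). It had the lowest adjusted p of the 32 members (8.17e-07), with 14 of 16 differentiated libraries below the lowest preadipocyte library, and lies on chromosome 14, 56189318 to 56217316. NFKB2, its partner, went from 777.6 to 2482 (median 973.4) to 547.4 to 900.9 (median 630.1). All 16 differentiated libraries were below the preadipocyte median, and the log2 fold change was -0.67 ± 0.14 (adjusted p 0.000394). The genes of the classical branch moved less. RELA, with a log2 fold change of -0.44 ± 0.11 (adjusted p 0.0025), and the adaptor gene MYD88, with -0.39 ± 0.11 (adjusted p 0.00464), passed the p threshold but not the fold threshold. NFKB1 gave -0.45 ± 0.20 (adjusted p 0.0945).

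NFKBIA, on chromosome 18 from 44382262 to 44385187, had values of 72.3 to 1626 in preadipocytes (median 124.2) and of 142.0 to 1429 after differentiation (median 436.0). It rose by 1.52 ± 0.36 (adjusted p 0.00171), and all 16 differentiated libraries were above the preadipocyte median. TNFAIP3, the ubiquitin-editing inhibitor of the pathway, went from a median of 29.3 (0 to 489.1) to 65.5 (28.9 to 177.8). With 15 of 16 differentiated libraries above the preadipocyte median, its log2 fold change of 1.39 ± 0.60 was not called (adjusted p 0.0743). SOCS3, the feedback inhibitor of cytokine receptors of the IL6 family, went from a median of 85.4 (31.9 to 181.8) to 49.0 (14.4 to 319.5) and fell by 0.93 ± 0.34 (adjusted p 0.033). The SOCS3 call was lost without MC replicate 1 (-0.87), MCD replicate 3 (-0.85), MCD replicate 4 (-0.79), MFGR replicate 2 (-0.84), FC replicate 4 (-0.89), FCD replicate 3 (-0.82, the highest adjusted p, 0.0616) or FFGRD replicate 2 (-0.87).

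None of the 3 prostaglandin enzymes and none of the 3 adhesion and effector genes was called. PTGS2, the inducible cyclooxygenase, had medians of 238.2 and 198.1 and a log2 fold change of -0.53 ± 0.68, with a 95% confidence interval of -1.93 to 0.87. PTGS1, the constitutive form, gave 0.03 ± 0.63 and PTGES, the prostaglandin E synthase, -0.04 ± 0.32. ICAM1, an adhesion molecule for leukocytes, had medians of 624.1 and 628.1 and a log2 fold change of -0.09 ± 0.18 (interval -0.46 to 0.27). VCAM1, another adhesion molecule, gave -0.53 ± 0.53 and the matrix-binding TNFAIP6 gave 0.76 ± 0.38 (adjusted p 0.126). These intervals leave room for changes of more than 1.5-fold in either direction for PTGS1, PTGS2 and PTGES, downward for VCAM1 and upward for TNFAIP6.

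Without the 7 libraries that stood apart, 15 of 31 members were called (48.4%, beside 27.4% of all genes in that fit), 3 higher and 12 lower. With all libraries it was 50.0%, beside 27.2% of all genes. CXCL12 (1.18, adjusted p 0.0976), IL6R (0.70, 0.176) and SOCS3 (-0.65, 0.20) were no longer called, and LIF (-2.45, 0.0119), CCL20 (-2.67, 0.0476) and NFKB1 (-0.63, 0.00015) were. IL34 no longer passed the filter, and the other 12 members were called as before, with LIFR at 2.38 (adjusted p 2.29e-06) and NFKBIA at 1.09 (0.0447).

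In the acute cytokine genes single preadipocyte libraries stood far above the rest. FFGR replicate 1 held the highest value of the 16 preadipocyte libraries for 14 of the 32 members (43.8%), compared with 10.0% of all genes tested. In this library IL6 was 3550, IL1A 1464, LIF 362.9, CCL20 4610, CXCL8 4541, PTGS2 10340 and CCL2 10910. FC replicate 1 was the next highest for IL6 (740.9), IL1A (788.9), CXCL8 (329.2) and PTGS2 (5654). MFGR replicate 3 followed, with an IL6 value of 347.2 and a CXCL8 value of 146.2. At the other end, IL6 was listed at 0 in MFGR replicate 2 and FFGR replicate 2, and CXCL8 in MC replicate 3. The inhibitor genes were high in the same libraries, with NFKBIA at 1626 in FFGR replicate 1 and 842.4 in FC replicate 1 against at most 248.0 in the other 14, and TNFAIP3 at 489.1 and 319.4 against at most 85.6.

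**Figure D3:**
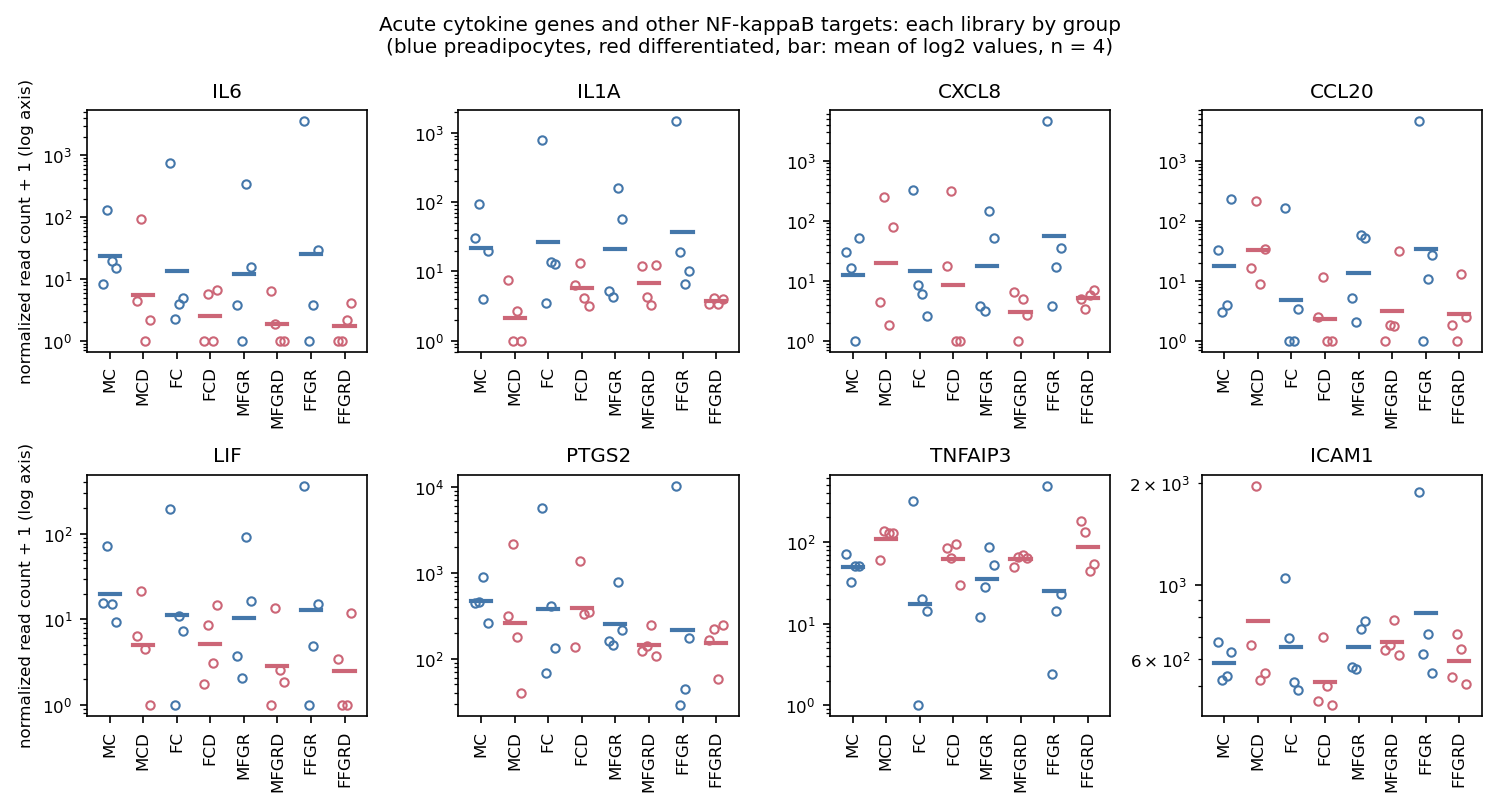
Normalized read count + 1 (log y axis) of 8 acute cytokine and NF-kappaB target genes in each library, by group (x axis), with preadipocytes in blue, differentiated cells in red and a bar for the mean of the log2 values of 4 libraries. A single blue point, replicate 1, stands far above the other 3 in FFGR and in FC for most genes, and reaches 3550 for IL6 and 10340 for PTGS2 in FFGR.

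FFGR replicate 1 was not among the 7 libraries set apart (span slope -0.0615), and its leukocyte markers were uneven. PTPRC, CD163 and AIF1 were listed at 0, and TYROBP, LYZ, FCER1G, CD3E and ITGAM lay between 0.891 and 6.77. CSF1R was 22.0, CD68 was 139.2, and CD14 was 162.1, the highest value of the 16 preadipocyte libraries. The 11 leukocyte markers summed to 339.8 in it, of a range of 96.3 to 1220 in preadipocytes. The highest preadipocyte sum was that of FFGR replicate 4, with PTPRC at 55.8, CD163 at 545.5 and an IL6 value of 28.5. FFGR replicate 3 followed with a sum of 611.4, CD68 at 512.8 and an IL6 value of 2.85. The markers did not move together, since CD163 was 541.3 in MFGRD replicate 3, where PTPRC was 0. After differentiation, the highest library was MCD replicate 2 for 10 of the 32 members (31.2%, beside 10.4% of all genes) and FCD replicate 2 for 6 (18.8%, beside 9.22%). CXCL8 reached 247.2 and 316.1 in these libraries. Their leukocyte markers summed to 543.7 and 958.6, most of it CD14 (381.5 and 698.6), whereas PTPRC was 2.94 and 1.94 and TYROBP 0 and 0.893. CD14 was also high in MCD replicate 3 (548.5), where CXCL8 was 0.850. The part that culture, handling or other cells had in these libraries was not tested.

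Left out together, a choice made after their values were seen, FFGR replicate 1 and FC replicate 1 left 13 of 31 members called (41.9%, beside 27.3% of all genes in that fit), 5 higher and 8 lower. IL6 (-1.70, adjusted p 0.084) and CXCL12 (1.01, 0.0938) lost their calls, NFKB2 (-0.53, adjusted p 0.000614) fell below the fold threshold, and IL15 no longer passed the filter. TNFAIP3 was called higher instead (2.10 ± 0.40, adjusted p 0.000189), and NFKBIA rose by 1.94 in place of 1.52. RELB, CCL2, IL33, IL1RL1 and LIFR were called with and without these libraries.

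**Figure D4:**
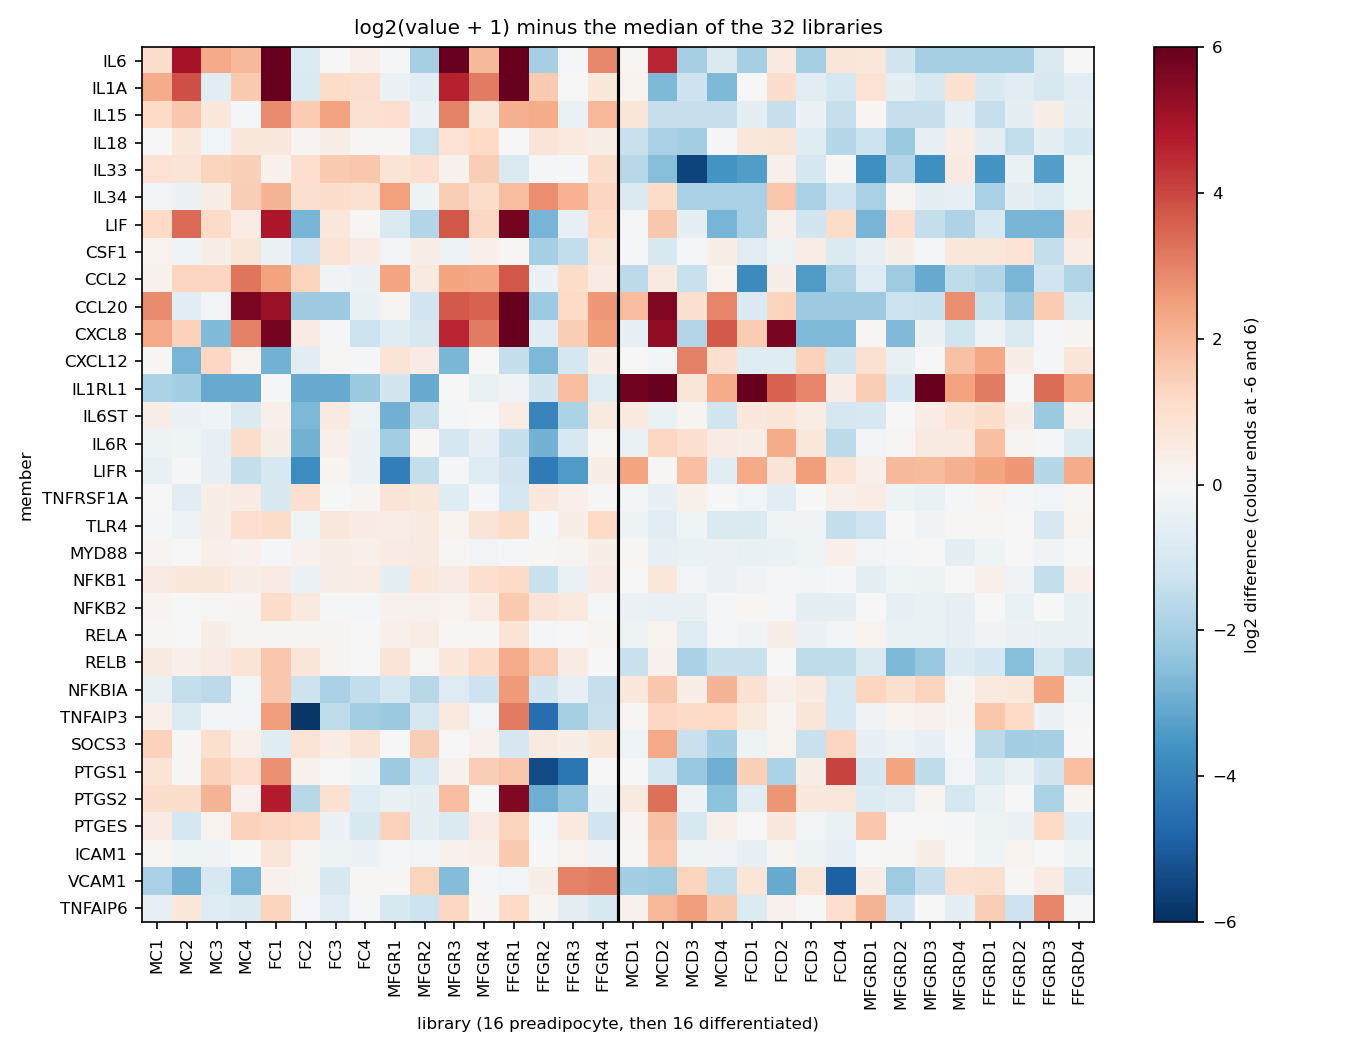
Log2(value + 1) of the 32 members (rows) in the 32 libraries (columns, 16 preadipocyte then 16 differentiated), each as the difference from the member's median, with the colour scale ending at -6 and 6. Libraries are named by group and replicate. The red cells of FFGR1 and FC1, and in part of MFGR3, show IL6, IL1A, CXCL8, CCL20 and PTGS2 high together. On the right, MCD2 shows IL6, CXCL8, CCL20 and PTGS2 high together, whereas IL1A was 0 in it.

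Within single groups of 4 and 4 libraries few members were called. IL15, IL34 and IL1RL1 had passed the filter through the stage where they were higher, which limits the counts that include them. Overlap between groups describes the values shown, and its share over all genes was not determined. In male controls 2 of 32 were called, beside a background of 8.35% of all genes. IL33 was 446.1, 427.5, 625.9 and 666.4 in MC and 77.9, 40.6, 4.34 and 19.6 in MCD, which do not overlap, and fell by 4.44 ± 0.90 on the log2 scale. IL1RL1 was 1.22, 1.01, 0 and 0 in MC and 458.6, 1611, 12.7 and 37.1 in MCD and rose by 6.59 ± 1.60. No pairing is stated, but a further fit treated libraries with the same replicate number as pairs. With this replicate block 5 members were called (15.6%, beside 14.3% of all genes), adding IL18 (-1.66 ± 0.39, adjusted p 0.0101), RELB (-1.64 ± 0.47, 0.0311) and NFKBIA (2.09 ± 0.60, 0.0288). Both main calls held in each fit without 1 library, and the count rose to 4 without FC replicate 1 or without FFGR replicate 1.

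In female controls the background was 2.52%, and 2 members were called, IL1RL1 and IL15. Both had passed the filter through the stage where they were higher, so their count cannot be weighed against that share. IL1RL1 was 6.86, 0, 0 and 0.772 in FC and 3794, 95.2, 62.2 and 9.88 in FCD, with a log2 fold change of 6.03 ± 1.60. IL15 was 17.8, 6.43, 12.9 and 3.89 in FC and 0.752, 0, 1.07 and 0 in FCD, with a log2 fold change of -2.84 ± 0.71. With the replicate block 5 members were called (15.6%, beside 5.59% of all genes), which added CCL2 (-2.96 ± 0.72, adjusted p 0.0271), LIFR (2.81 ± 0.71, 0.0316) and RELB (-1.72 ± 0.47, 0.0441). The count fell to 0 without FC replicate 3, FCD replicate 1 or FCD replicate 3 and to 1 without FC replicate 1, FC replicate 2, FC replicate 4 or FCD replicate 4. Without FCD replicate 2 both calls were lost (IL15 -2.68, adjusted p 0.051, and IL1RL1 6.15, adjusted p 0.05), and CCL2, IL34 and RELB were called lower in their place. The IL1RL1 call rested most on FCD replicate 1 (4.39 and adjusted p 0.185 without it), and the IL15 call on FC replicate 1 (-2.53, adjusted p 0.0933).

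In growth-restricted males 3 members were called, beside 5.13% of all genes, and all 3 fell. CCL2 was 4229, 1182, 4152 and 4118 in MFGR and 476.2, 183.0, 97.8 and 280.3 in MFGRD, with a log2 fold change of -3.77 ± 0.87. RELB was 241.7, 153.8, 218.4 and 313.1 against 77.4, 20.96, 28.7 and 79.3, a log2 fold change of -2.33 ± 0.53. For both genes the groups did not overlap. IL33 was 439.0, 492.5, 297.1 and 688.0 against 18.2, 72.8, 18.1 and 355.8, which overlap through MFGRD replicate 4, with a log2 fold change of -3.04 ± 0.90. The IL33 call lay close to the threshold and was lost in 15 of the 32 fits without 1 library, at most to an adjusted p of 0.169 without MFGRD replicate 3. With the replicate block 6 members were called (18.8%, beside 9.01% of all genes), which added IL1RL1 (3.89 ± 1.07, adjusted p 0.032), LIFR (3.18 ± 0.71, 0.0112) and NFKBIA (2.11 ± 0.60, 0.0367).

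In growth-restricted females 5 members were called, beside 10.3% of all genes. RELB was 660.7, 402.0, 198.0 and 137.6 in FFGR and 69.0, 23.4, 71.7 and 46.4 in FFGRD, and fell by 2.57 ± 0.53. CCL2 was 10910, 633.4, 1732 and 1138 against 240.0, 121.7, 371.0 and 234.4, and fell by 3.09 ± 0.87. NFKB2 was 2482, 1428, 1240 and 777.6 against 841.7, 632.3, 820.8 and 601.3, and fell by 0.92 ± 0.27. IL34 was 13.0, 25.5, 15.2 and 8.52 against 0, 1.58, 1.19 and 2.27, and fell by 2.90 ± 0.76. LIFR was 173.3, 19.4, 35.7 and 494.7 against 1993, 2299, 116.9 and 1796, which overlap through FFGRD replicate 3, and rose by 3.47 ± 1.03. RELB, CCL2 and IL34 did not overlap between the groups, and NFKB2 overlapped through FFGR replicate 4. IL1A, IL18 and RELA did not overlap either, although they were not called.

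The FFGR calls rested on single libraries, except that of RELB, which held in each fit without 1 library. Without FFGR replicate 1, 3 members were called, and CCL2 (-2.26, adjusted p 0.0927) and NFKB2 (-0.64, 0.126) were not among them. Without FFGR replicate 2 the count was 2, with LIFR at 2.76 (adjusted p 0.134), NFKB2 at -0.90 (0.0711) and IL34 at -2.64 (0.0538). It was 2 also without FFGRD replicate 2, with CCL2 at -2.80 (0.0748), NFKB2 at -0.86 (0.0871) and LIFR at 3.06 (0.101). It was 3 without FFGRD replicate 1, with LIFR at 3.13 (0.095) and IL34 at -2.55 (0.0604), and without FFGRD replicate 4, with LIFR at 3.18 (0.0806) and NFKB2 at -0.84 (0.0847). Without FFGR replicate 3 the LIFR value was 3.04 (0.102). The LIFR values of 19.4 in FFGR replicate 2, 35.7 in FFGR replicate 3 and 116.9 in FFGRD replicate 3 came from libraries that stood apart. Its estimate in FFGR without all of them is not given here.

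**Figure D5:**
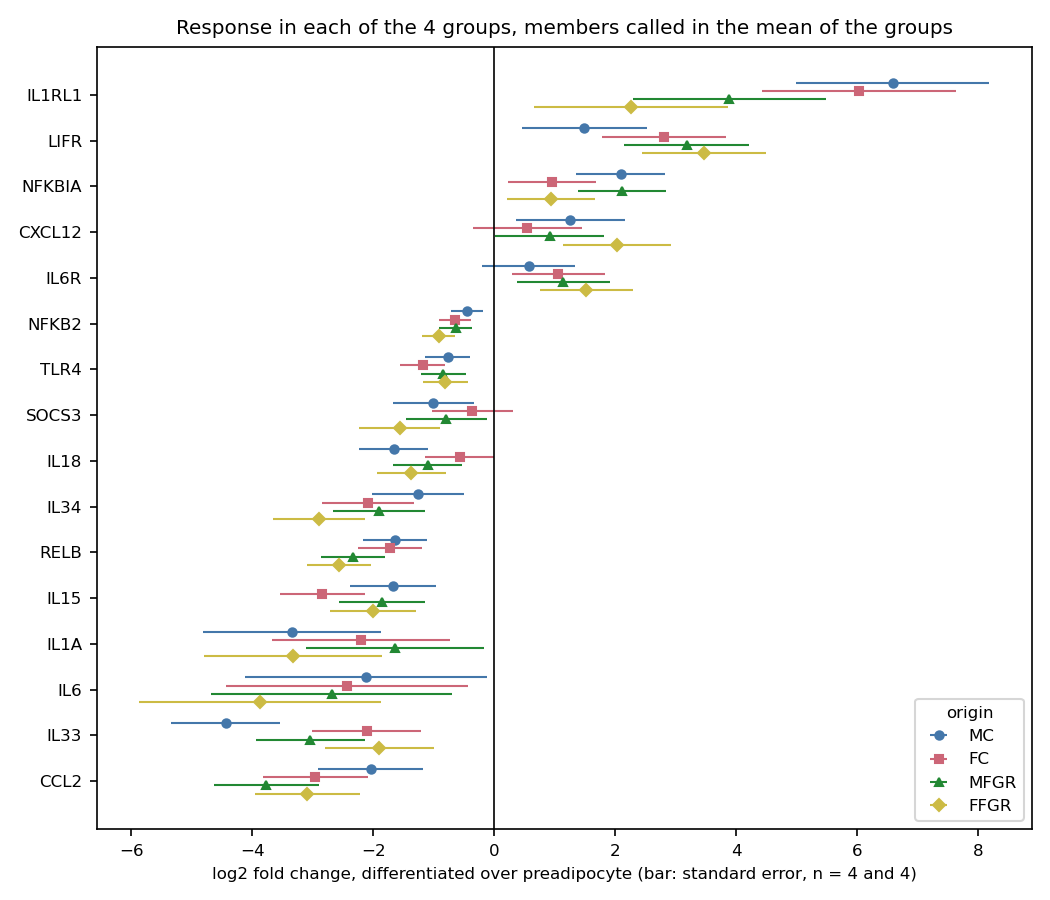
Log2 fold change of differentiation (x axis, bars for the standard error, 4 against 4 libraries) in each of the 4 groups by sex and growth restriction, for the 16 members called in the mean of the groups. Each member lies on the same side of 0 in all 4 groups, and the widest spread is that of IL1RL1, from 6.59 in MC to 2.26 in FFGR.

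Growth restriction and sex gave no called member in limma, and no called gene among all those tested (0% in each comparison). In preadipocytes, 2 members had an unadjusted p below 0.05 for growth restriction, of 344 such genes in all. VCAM1 was higher with growth restriction by 1.74 ± 0.75 and PTGS1 was lower by a log2 fold change of -1.93 ± 0.90, each with an adjusted p of 0.84. VCAM1 was 34.3, 17.3, 68.5 and 18.7 in MC, 156.9, 151.5, 69.6 and 140.5 in FC, 139.4, 335.7, 21.1 and 127.0 in MFGR, and 118.0, 172.6, 1062 and 1151 in FFGR. Its highest values, in FFGR replicate 3 and FFGR replicate 4, came from the libraries with the highest leukocyte marker sums in preadipocytes (611.4 and 1217). FFGR replicate 3 also stood apart. Both libraries enter the VCAM1 estimate for sex below as well, and their part was not tested. PTGS1 was 172.7, 99.6, 254.6 and 195.4 in MC and 643.0, 115.9, 95.5 and 79.5 in FC. It was 20.2, 48.9, 115.3 and 266.9 in MFGR and 311.6, 1.38, 3.76 and 96.9 in FFGR. The lowest of these, in MFGR replicate 1, FFGR replicate 2 and FFGR replicate 3, came from libraries that stood apart, as did the 115.9 of FC replicate 2. The PTGS1 estimate without them is not given here. In differentiated cells no member had an unadjusted p below 0.05 for growth restriction, of 136 such genes.

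For sex, coded as male minus female, 1 member had an unadjusted p below 0.05 in preadipocytes, VCAM1 at -1.96 ± 0.75 (adjusted p 0.846), of 550 such genes. In differentiated cells it was IL33 at -1.31 ± 0.64 (adjusted p 1), of 159. The difference in the response to differentiation between growth-restricted and control cells, and that between the sexes, gave 0 called members and 0 with an unadjusted p below 0.05, of 132 and 116 such genes. The estimates differed widely in precision. For growth restriction in preadipocytes, MYD88 gave -0.01 with a 95% confidence interval of -0.32 to 0.29 and RELB 0.26 (-0.51 to 1.03), whereas IL6 gave -0.04 (-2.93 to 2.85) and CXCL8 1.22 (-1.69 to 4.13), so that several-fold differences in these genes were not detectable. The counts stayed at 0 in each alternative setting tried.

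Other genes of the pathways were examined by lists compiled with results of these data known. Of all genes tested, 12.4% were higher and 14.8% lower, beside the counts below. Genes that passed the filter through the stage where they were higher were not set aside in these lists. Among 31 gene entries of NF-kappaB signalling outside the module, 2 rose, 4 fell and 25 were not called, with a median log2 fold change of -0.02. BCL3, a nuclear partner of the p50 and p52 subunits, fell by 1.19 ± 0.25, and TRAF1 fell by 1.04 ± 0.35. TRAF3, which restrains the alternative branch, fell by 0.67 ± 0.23 and the interleukin-1 receptor kinase gene IRAK4 fell by 0.60 ± 0.12. NFKBIZ, an atypical nuclear member of the inhibitor family, rose by 1.32 ± 0.40 and IRAK2 by 1.28 ± 0.21.

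The signalling genes behind IL6ST and LIFR moved mostly upward, with 7 of 17 higher, 1 lower and a median of 0.45. STAT5A rose from a median of 261 to 683 (1.30 ± 0.16) and CISH, a feedback inhibitor of STAT5 signalling, from 11.3 to 61.6 (2.43 ± 0.33). SOCS2, a feedback inhibitor, rose by 1.53 ± 0.34, whereas SOCS3 of the module fell. IL27RA fell by 1.24 ± 0.19.

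Of 19 further genes of the interleukin-1, TNF and chemokine families that could be tested, 8 fell and 3 rose, with a median of -0.40. CXCL6, a neutrophil chemokine, went from a median of 4720 to 547 (-2.85 ± 0.49) and SIGIRR, an inhibitory receptor of the interleukin-1 family, from 55.1 to 6.39 (-3.14 ± 0.30). FAS, the death receptor, fell by 1.45 ± 0.31. PTX3, a secreted pattern-recognition protein of the pentraxin family, rose from a median of 150 to 32300 (7.85 ± 0.48) and CCL19 from 1.05 to 48.7 (4.40 ± 0.40). CCL19 was at most 5.98 in preadipocytes, and TNFSF13B, which counted as lower, was at most 4.06 after differentiation. Each thus passed the filter through the stage where it was higher.

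Glucocorticoid-induced genes moved with the stage as well: 8 of the 9 tested rose, among them FKBP5 (5.29 ± 0.31), ZBTB16 (8.93 ± 0.41) and PER1 (2.81 ± 0.29), and ANXA1 fell by 1.42 ± 0.30. ZBTB16 was at most 8.19 in preadipocytes and so passed the filter through the differentiated stage. NFKBIA is itself known to be induced by glucocorticoids. Their part in the values of the module was not tested. Of the leukocyte markers, 4 of 11 could be tested, of which CD163 (2.85 ± 0.73) and CD14 (1.86 ± 0.35) rose and CD68 fell by 0.81 ± 0.31. The summed leukocyte markers ranged from 96.3 to 1220 in preadipocytes (median 183) and from 128 to 959 after differentiation (median 333), and PTPRC and TYROBP had medians of 0 at both stages. Endothelial markers summed to medians of 40.7 (11.5 to 92.7) and 19.8 (5.84 to 289), with KDR called lower, and mesothelial markers to 32.5 (3.06 to 1610) and 46.7 (1.41 to 130), with none called. Mural markers summed to medians of 782 (211 to 3950) and 138 (78.6 to 1040), with DES and CSPG4 called lower. Preadipocyte and fibroblast markers summed to medians of 380000 and 236000, with 1 gene called higher and 3 lower of 8.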

How the data were processed

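RNA of the 32 libraries was sequenced by the authors, who checked quality with FastQC (version 0.11.9 per the labels) and dropped reads whose mean Phred score was under 34. The authors counted the rest per transcript of Oar_rambouillet_v1.0 (Ensembl) with Salmon and normalized the counts with DESeq2. The deposited signal is this normalized read count per transcript and library, no longer whole reads, so the test written for normalized values was used. The deposited table also holds the authors' mean signal per group, their signed fold change, a score, and their p-value and adjusted p-value for their own comparisons. None of these was used. Libraries were assigned to groups from the labels.

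Transcripts were summed per gene, and genes with at least 10 in at least 4 of 32 libraries were kept. One limma fit (version 3.58.1, R 4.3.3, empirical Bayes with trend) on log2(value + 1) had 8 group means and 24 residual degrees of freedom. Fold changes on this scale understate the change of low genes. Adjusted p-values (Benjamini-Hochberg) cover all 12737 genes, and a call also needed a fold change above 1.5. The procedure was tested on simulated data. Depth limits the precision of low values, and the whole read numbers behind them were not recovered.

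The members and all lists were chosen with earlier results of these data known. Described in full were the members called in the mean of the 4 groups (up to 8 in each direction) and, whatever their result, IL6, CXCL8, CCL2, IL1B, TNF, NFKBIA, CXCL12 and TLR4. Members described beyond this rule were chosen after their values were seen. Libraries with the same replicate number were compared through the correlation of their deviations from the group means. It was above 0.1 for all 4 numbers between MC and MCD (0.162 to 0.615), FC and FCD (0.303 to 0.508) and MFGR and MFGRD (0.393 to 0.671). Between FFGR and FFGRD it was so for 3 of 4 (-0.398 to 0.565). The same number was the best match in 13 of 16 cases, with 3 of 4 in MC and 2 of 4 in FFGR. Neither labels nor methods state a pairing, and whether shared origin or shared technical quality gave these correlations was not tested. In the mean of the 4 groups the block covered FFGR too. Alternatives were other pseudocounts and filters, fits on the groups compared alone, a replicate block, the slope on genomic span as a covariate, library weights, transcripts in place of gene sums, the p threshold alone, and fits without each library or without sets of libraries. Sequences of the members were not used here, and the values of 1 further pathway gene are not reported here.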

Additional observations from a re-analysis of the deposited data

Results flagged for a closer look

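In 11 of 136 sets of 4 libraries, 1 for each of 17 genes and 8 groups, a single library lay farther from the other 3 than Dixon's 95% critical value allows, where chance alone gives about 1 in 20 (6.8 sets). IL6 was 740.9 in FC replicate 1 and 1.28 to 3.89 in the other FC libraries, and IL34 was 15.05 in the same library and 6.23 to 6.94 in the others. IL15 was 3.33 in MCD replicate 1 and 0 in the others, and 0.9516 in FFGR replicate 3 against 9.26 to 11.1. CCL2 was 1182 in MFGR replicate 2 against 4118 to 4229, and NFKB2 was 1124 in MFGR replicate 4 against 970.0 to 992.7. IL6R was 14.12 in MC replicate 4 against 4.07 to 5.04, and RELB was 143.7 in FCD replicate 2 against 48.3 to 54.6. LIFR was 473.0 in MFGRD replicate 1 against 1445 to 1655 and 116.9 in FFGRD replicate 3 against 1796 to 2299, and TLR4 was 51.56 in FFGRD replicate 3 against 105.0 to 117.3. MFGRD replicate 1, FFGR replicate 3 and FFGRD replicate 3 are among the 7 libraries that stood apart. No difference between groups in the response to differentiation passed its test.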

How the results depend on the processing

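No called member changed direction in any alternative. The count of 16 called in the mean of the 4 groups lay between 13 and 17 when 1 library was left out. It was 8 with a filter of 20 CPM in 3 libraries, which tested 22 members (36.4%, beside 22.2% of all genes). In the other alternatives it was between 13 and 20, beside 18.7% to 33.3% of all genes or transcripts. In single groups, leaving out 1 library gave 2 to 4 calls for MC, 0 to 3 for FC, 2 to 4 for MFGR and 2 to 6 for FFGR. The share over all genes in the fits without 1 library is not given here, so these ranges describe the members alone. The FC count of 2 became 1 with a pseudocount of 0.1 (1.95% of all genes) or no filter (1.23%). It became 0 with a pseudocount of 10 (2.84%), the 20 CPM filter (2.33%), its own groups alone (0.43%) or transcripts tested singly (1.02% of transcripts). With a pseudocount of 10, MC gave 1 (7.59% of all genes). Fits on the own groups alone gave 5 of 28 members for MC (17.9%, beside 7.53% of all genes) and 0 of 24 for FFGR (beside 2.67%). The replicate block gave 5 for MC, 5 for FC, 6 for MFGR and 17 for the mean of the 4 groups, where it added LIF and TNFAIP3 and lost IL6R. All genes were also called more often under the block, at 14.3%, 5.59%, 9.01% and 31.6%, compared with 8.35%, 2.52%, 5.13% and 27.2% without it. With the span slope as covariate the counts were 5 for MC, 6 for FC and 6 for MFGR, beside 17.1%, 11.5% and 16% of all genes, and with library weights 10, 9 and 9, beside 19.0%, 15.7% and 15.2%. Without the libraries set apart MC gave 4 (11.3% of all genes), FC 3 (4.08%), MFGR 4 (5.26%) and FFGR 3 (4.64%). Without FFGR replicate 1 and FC replicate 1 MC gave 5 (8.97%). For growth restriction, sex and both differences in response, leaving out 1 library gave 0 to 0. The cause of these shifts was not tested. The stricter filter left fewer genes, and fits on the own groups had fewer libraries and their own filter and estimate of the spread. Members with medians below 10, such as IL15, IL34 and IL6R, were limited by depth.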
